A study of Homo sapiens with 4 samples.

Results

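The genes described here are the enzymes that make or use up crotonyl-CoA and the proteins, other than YEATS2 itself, that read or regulate crotonylated histone lysines. They were *GCDH*, *ACADS*, *ECHS1*, *HADH*, *CDYL*, *CDYL2*, *MLLT1*, *MLLT3*, *YEATS4* and *DPF2*, taken from the count files by their symbols, and each symbol was found once, giving 10 of the 60623 genes listed. The RNA-seq was done in cells labelled BICR10, an established human cell line that the labels give as head and neck cancer, after lentiviral delivery of a control hairpin (shControl, 2 libraries) or of a hairpin against *YEATS2* (shYEATS2, 2 libraries). Both groups were thus transduced and, per the study's methods, selected with puromycin before harvest. A pair of YEATS2 hairpins is listed in those methods, and which of them a library carried is not given in the sources used here. All 4 libraries came from this single line, and no source says that the libraries of a group came from separate transductions, so the p-values given here measure the spread between these libraries only, which may be technical.

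Lysine crotonylation is a short-chain acyl mark on histones that uses crotonyl-CoA as donor. Crotonyl-CoA arises in mitochondria when glutaryl-CoA dehydrogenase (GCDH) breaks down the product of lysine and tryptophan catabolism, or when short-chain acyl-CoA dehydrogenase (ACADS) oxidizes butyryl-CoA, and it is hydrated by the short-chain enoyl-CoA hydratase ECHS1, after which the 3-hydroxyacyl-CoA dehydrogenase HADH takes the next step of β-oxidation. The mark is bound by YEATS domains, such as those of ENL (*MLLT1*), AF9 (*MLLT3*), GAS41 (*YEATS4*) and YEATS2, and by double PHD fingers such as that of DPF2, while CDYL, a chromodomain co-repressor, can hydrate crotonyl-CoA in the nucleus. The contrast of shYEATS2 with shControl asks how the RNA of these enzymes and of the remaining readers stood once one reader was depleted.

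After YEATS2 knockdown, 3 of the 10 genes were lower (*HADH*, *ACADS* and *ECHS1*), 2 were higher (*CDYL* and *CDYL2*) and 5 did not pass the test (*GCDH*, *MLLT1*, *MLLT3*, *YEATS4* and *DPF2*), with edgeR's quasi-likelihood test at an adjusted p under 0.05 over the 17058 genes that passed the filter on low counts. All 10 genes passed that filter. Over all genes tested, 23.6% were lower and 22.6% were higher, so 3 of 10 lower and 2 of 10 higher are near the background of the knockdown. The split of all calls into lower and higher depends on the scaling: 51.0% of the calls were lower here, and 32.1% when libraries were scaled by their totals alone. The 10 genes had a median of −0.05 on the log2 scale, beside −0.01 for all genes tested (quartiles of −0.31 and 0.32). Their median absolute change was 0.25, beside 0.31 for all genes tested.

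Levels are in CPM, the counts of a gene relative to the library's TMM-scaled total, and each ± is the SD of 2 libraries. A log2 fold change is shYEATS2 minus shControl, and its SE comes from the same edgeR fit. *YEATS2* itself stood at 66.1 and 66.7 CPM in the shControl libraries and at 29.2 and 29.1 CPM in the shYEATS2 libraries (log2 fold change −1.19, SE 0.08, adjusted p = 3.6e-21), so the labels of the libraries matched its level. *SP1* encodes a transcription factor that binds GC boxes, and the study places it upstream of both *YEATS2* and *GCDH*. *SP1* RNA stood at 90.7 and 95.5 CPM against 78.8 and 79.8 CPM (log2 fold change −0.23, SE 0.07, adjusted p = 0.0030). This call on *SP1* did not hold with library totals alone, with libraries thinned to equal depth, or without shControl replicate 2, where the adjusted p rose to at most 0.265 and the log2 fold change lay between −0.20 and −0.10. The totals on genes ran from 11334133 to 47297970 counts, and both shYEATS2 libraries were shallower than both shControl libraries, so depth and condition cannot be told apart.

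The cell type named by the labels was checked by markers. Several markers that define epithelial cells were at or near 0 in libraries labelled BICR10, while fibroblast markers were abundant, and markers of both kinds moved with the condition. Of 8 squamous markers, TP63 had 0 to 3 counts in a library and KRT17 0 to 15, KRT14 averaged 1.21 CPM in shControl, and the 8 summed to 308 to 328 CPM in shControl and 260 to 269 CPM in shYEATS2, mostly SFN and PERP. Of the 6 squamous markers tested, 3 were lower and 1 higher: KRT6A went from 56.6 to 1.79 CPM and KRT5 from 15.7 to 1.19 CPM, while PERP was higher (log2 fold change 0.19). Of 5 simple epithelial markers, KRT19 had no count in any library and EPCAM averaged 1.01 CPM in shControl, and the summed level, mostly KRT8 and KRT18, was 375 to 380 CPM in shControl and 189 to 204 CPM in shYEATS2. Of the 4 simple epithelial markers tested, 3 were lower, and CDH1 was higher, from 0.335 to 2.48 CPM. The 8 fibroblast markers summed to 7205 to 7295 CPM in shControl and to 2221 to 2360 CPM in shYEATS2, and 7 of the 8 were lower. Leukocyte markers summed to 0.552 to 1.76 CPM, with CD3E at 0, and endothelial markers to 1.32 to 2.20 CPM. The part of these shifts in the results on the 10 genes was not tested. In bulk RNA, fewer cells of a type and less RNA per cell cannot be told apart.

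**Figure D1:**
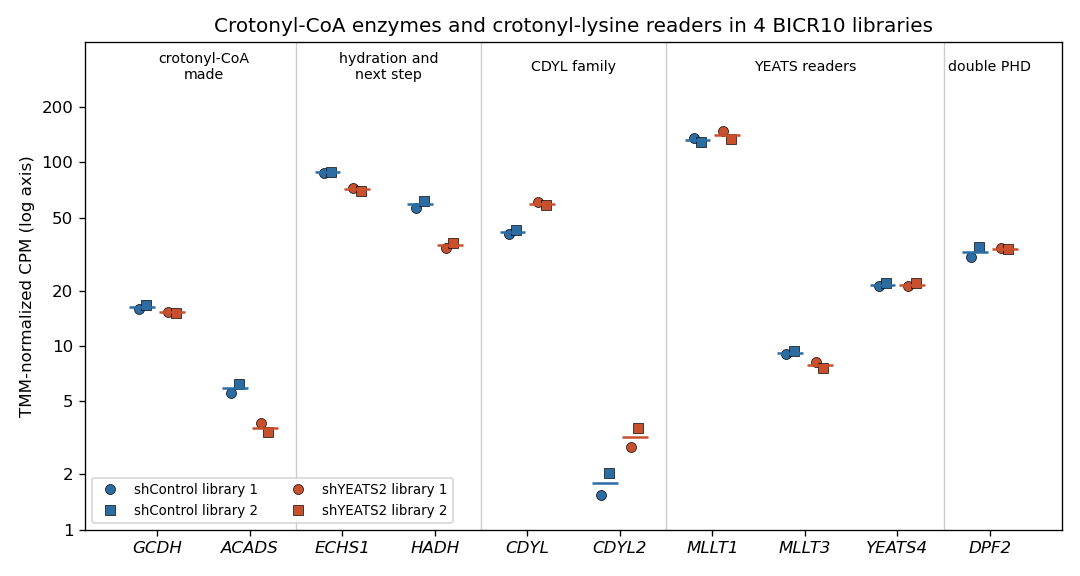
TMM-normalized CPM (log axis) of the 10 genes in each library, with circles for library 1 and squares for library 2 of a condition, blue for shControl and red for shYEATS2, and a short line at each mean of 2 libraries. The shYEATS2 points of *ACADS*, *ECHS1* and *HADH* lie below both shControl points, those of *CDYL* and *CDYL2* lie above them, and those of *MLLT1*, *YEATS4* and *DPF2* overlap them.

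The promoters are shown because *SP1* was among the genes tested and because the 3 genes printed stand for the 3 outcomes: *GCDH* was not called, *ECHS1* was lower and *CDYL* was higher. Each is the 250 bases before a RefSeq start on GRCh38.p14, in the direction of the gene, with every GC box (GGGCGG on either strand, so CCGCCC where it lies on the other strand) in capitals. *GCDH* is chr19:12890910-12891159 on the plus strand, *ECHS1* is chr10:133373355-133373604 on the minus strand, and *CDYL* is chr6:4776154-4776403 on the plus strand, before an internal start. No exon of GENCODE release 44 overlaps these windows.
GCDH promoter: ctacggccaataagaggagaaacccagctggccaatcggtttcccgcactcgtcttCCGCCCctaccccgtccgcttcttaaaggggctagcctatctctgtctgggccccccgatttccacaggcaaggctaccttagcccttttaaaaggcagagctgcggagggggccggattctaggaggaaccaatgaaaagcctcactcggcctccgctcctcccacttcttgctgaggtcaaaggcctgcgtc
ECHS1 promoter: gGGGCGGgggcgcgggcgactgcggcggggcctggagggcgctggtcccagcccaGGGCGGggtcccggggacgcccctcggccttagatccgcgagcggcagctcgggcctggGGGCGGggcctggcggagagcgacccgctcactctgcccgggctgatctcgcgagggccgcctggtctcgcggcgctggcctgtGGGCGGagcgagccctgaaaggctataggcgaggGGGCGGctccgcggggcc
CDYL promoter: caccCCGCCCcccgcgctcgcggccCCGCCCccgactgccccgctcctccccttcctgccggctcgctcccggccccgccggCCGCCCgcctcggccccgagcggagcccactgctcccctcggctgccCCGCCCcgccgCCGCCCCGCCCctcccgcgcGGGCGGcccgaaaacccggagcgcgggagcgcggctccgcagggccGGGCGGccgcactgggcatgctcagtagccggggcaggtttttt
The *GCDH* window held 1 GC box, 194 bases before the start on the minus strand, and 3 CCAAT boxes (CCAAT on either strand). The *ECHS1* window held 5 GC boxes, all on the plus strand, the nearest 18 bases before the start. The *CDYL* window held 8, of which those at 110 and 105 bases before the start overlap in a single base, while the other CDYL windows, 1 of them at the annotated start of the gene, held 0 GC boxes at 49.6% and 56.0% G and C.

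These windows differ in base composition. G and C made up 58.8% of the *GCDH* window, with 13 CpG dinucleotides, 79.6% of the *ECHS1* window, with 32, and 82.8% of the *CDYL* window, with 39. Of the 10 genes, 9 had an entry among the RefSeq promoters, with 13 windows between them, and *CDYL2* had none. A GC box lay in at least 1 window of 7 of the 9 genes, and *YEATS4* and *DPF2* had none in the bases searched. By window, 8 of 13 held a GC box, beside 42.6% of 35116 windows of all genes and 53.7% of 22198 windows of protein-coding genes. At least 5 GC boxes, as in the *ECHS1* and *CDYL* windows printed, lay in 4.1% of windows of all genes. For protein-coding genes the share was 5.6%. CCAAT boxes lay in 6 of the 13 windows, beside 32.0% of the windows of all genes. The *GCDH* windows overlap, so the same GC box and the same CCAAT boxes were counted in both. GC boxes thus stood in windows of genes that were lower (*ECHS1*, *HADH*, *ACADS*), higher (*CDYL*, in 1 of its 3 windows) and not called (*GCDH*, *MLLT1*, *MLLT3*). A letter match is a description and does not show binding. For *GCDH*, the study itself reported SP1 at the promoter by ChIP-qPCR in BICR10 and SCC9 cells. It also reported lower GCDH protein after SP1 knockdown in these lines.

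*GCDH* (ENSG00000105607, chr19:12891160-12914207, plus strand, 12 exons) encodes the dehydrogenase that turns glutaryl-CoA into crotonyl-CoA, and the study relates it to histone crotonylation. It had 717 and 632 counts in the shControl libraries and 387 and 179 counts in the shYEATS2 libraries, which is 15.8 and 16.7 CPM against 15.3 and 15.2 CPM. Both shYEATS2 values lay below both shControl values by a margin smaller than the distance between the shControl libraries. Its log2 fold change was −0.09 (SE 0.11, 95% interval −0.30 to 0.12, adjusted p = 0.500), so no change was detectable at this depth, and the interval leaves room for a fall to −0.30. The direction was not stable, since with library totals alone it was 0.04. The exons of *GCDH* share 352 bases, 8.80% of their length, with *SYCE2* on the opposite strand, a gene with 15 to 121 counts, and the strand setting of the counting is not given in the sources used here, so reads of this stretch may be shared between them.

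*ACADS* (ENSG00000122971, chr12:120725774-120740008, plus strand, 10 exons), which makes crotonyl-CoA from butyryl-CoA, had 252, 235, 96 and 40 counts in shControl 1, shControl 2, shYEATS2 1 and shYEATS2 2. On the CPM scale these are 5.56 and 6.22 against 3.79 and 3.39, so the groups did not overlap. The mean was 5.89 ± 0.469 CPM in shControl and 3.59 ± 0.280 CPM in shYEATS2 (n = 2 each), and the fitted level in shYEATS2 was 62.0% of that in shControl. The log2 fold change of −0.69 (SE 0.18, 95% interval −1.04 to −0.34, adjusted p = 8.5e-04) had a wide interval, at a low count. The call was lost when all libraries were thinned to the depth of the smallest one (log2 fold change −0.74, adjusted p = 0.0698).

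*ECHS1* (ENSG00000127884, chr10:133362485-133373354, minus strand, 8 exons), the hydratase that removes crotonyl-CoA, was among the best-measured of the 10, with 3968, 3352, 1843 and 822 counts. Its level was 87.5 and 88.7 CPM in shControl and 72.7 and 69.7 CPM in shYEATS2. The shControl libraries differed by 0.02 on the log2 scale and the shYEATS2 libraries by 0.06, while every pair across the groups differed by −0.35 to −0.27. The log2 fold change was −0.30 (SE 0.07, 95% interval −0.44 to −0.17, adjusted p = 1.4e-04), which leaves 81.1% of the shControl level. This fall was close to the lower quartile of all genes tested, −0.31.

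*HADH* (ENSG00000138796, chr4:107989714-108035241, plus strand, 8 exons), which oxidizes the 3-hydroxybutyryl-CoA formed by ECHS1, fell the most among the enzymes by log2 fold change, with *ACADS* close to it. Their order turned with thinned libraries, at −0.73 for *HADH* and −0.74 for *ACADS*. It also turned without shYEATS2 replicate 1, at −0.71 for *HADH* and −0.81 for *ACADS*. *HADH* had 2568 and 2327 counts in shControl and 867 and 430 counts in shYEATS2, or 56.6 and 61.6 CPM against 34.2 and 36.5 CPM. The highest shYEATS2 value was well below the lowest shControl value. The log2 fold change was −0.75 (SE 0.08, 95% interval −0.90 to −0.59, adjusted p = 1.0e-12), to 59.5% of the shControl level. Of all genes tested, 7.85% had a log2 fold change as low or lower. Its exons share 11 bases with the antisense *CYP2U1-AS1*, which had 5 to 39 counts.

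**Figure D2:**
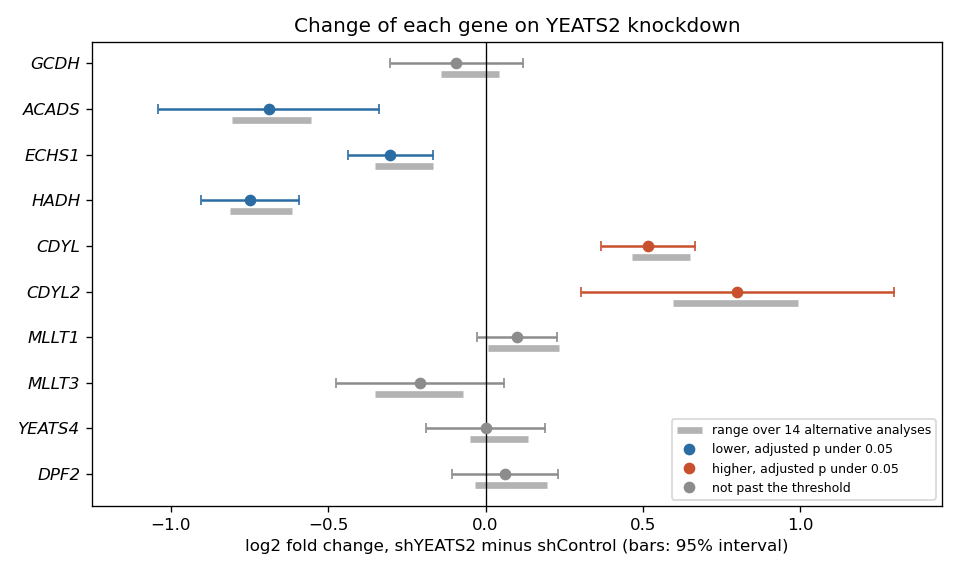
Log2 fold change of each gene (shYEATS2 minus shControl) with its 95% interval from edgeR's quasi-likelihood test, and in grey the range of the estimate over 14 alternative analyses. *HADH*, *ACADS* and *ECHS1* (blue) lie below 0 and *CDYL* and *CDYL2* (red) above 0 with their intervals, while the intervals of *GCDH*, *MLLT1*, *MLLT3*, *YEATS4* and *DPF2* (grey) cross 0.

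Ratios of counts within a library need no scaling between libraries. They compare the RNA counts of genes, without correction for transcript length, and the amounts and activities of the enzymes were not measured in these libraries. The ratio of *GCDH*, which makes crotonyl-CoA, to *ECHS1*, which removes it, was 0.181 and 0.189 in shControl and 0.210 and 0.218 in shYEATS2. It was higher in both shYEATS2 libraries, by 0.21 on the log2 scale or 1.16-fold, with a counting SE of 0.08 that does not cover the spread between cultures. The exact permutation test (two-sided, 2 against 2 libraries) gave p = 0.333, the smallest it can give, so this design cannot reach the threshold. The difference arose with *ECHS1* lower and *GCDH* not called.

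The ratios that follow were chosen after the values were seen and carry no test. Both shYEATS2 libraries had more *GCDH* per *HADH* count, 0.446 and 0.416 against 0.279 and 0.272. They also had more *GCDH* per *ACADS* count, 4.03 and 4.47 against 2.85 and 2.69. *HADH* per *ECHS1* count was 0.647 and 0.694 in shControl and 0.470 and 0.523 in shYEATS2. *ACADS* per *ECHS1* count was 0.0635 and 0.0701 against 0.0521 and 0.0487. Within the chain of enzymes, then, *ACADS* and *HADH* were lower relative to *ECHS1*, and *ECHS1* was lower relative to *GCDH*. The ratio of *ACADS* to *HADH* overlapped between the groups, at 0.0981 and 0.101 against 0.111 and 0.0930.

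**Figure D3:**
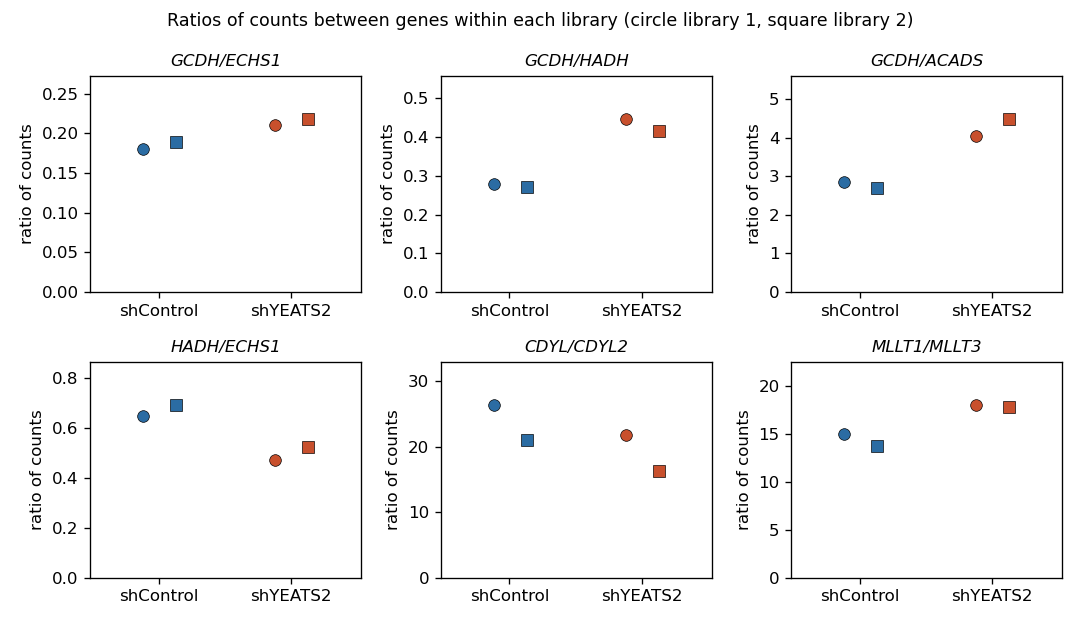
Ratio of counts of 1 gene to another within each library, for 6 pairs, with circles for library 1 and squares for library 2, each axis starting at 0. *GCDH* relative to *ECHS1*, *HADH* and *ACADS*, and *MLLT1* relative to *MLLT3*, is higher in both shYEATS2 libraries, *HADH* relative to *ECHS1* is lower, and *CDYL* relative to *CDYL2* overlaps.

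*CDYL* (ENSG00000153046, chr6:4706159-4955551, plus strand, 7 exons), whose protein joins a chromodomain to a hydratase-like domain and hydrates crotonyl-CoA, had 1847, 1618, 1542 and 686 counts. On the CPM scale it stood at 40.7 and 42.8 in shControl and at 60.9 and 58.2 in shYEATS2, with a clear gap between the groups. Its log2 fold change was 0.52 (SE 0.07, 95% interval 0.37 to 0.66, adjusted p = 2.1e-08), to 143% of the shControl level, and 83.7% of all genes tested had a log2 fold change as low or lower. *CDYL* thus rose while *ECHS1*, the mitochondrial hydratase, fell. The counts of *CDYL* were 71.9% and 69.5% of those of *HADH* in shControl and 178% and 160% in shYEATS2, the widest shift among the ratios computed, which was also chosen after the values were seen.

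*CDYL2* (ENSG00000166446, chr16:80597907-80804598, minus strand, 7 exons), the paralog of *CDYL*, was the least measured of the 10, with 70 and 77 counts in shControl and 71 and 42 counts in shYEATS2. Its level was 1.54 and 2.04 CPM against 2.80 and 3.56 CPM, so the shYEATS2 values were higher without overlap, but libraries of a group differed by 0.39 and 0.34 on the log2 scale. The log2 fold change was 0.80 (SE 0.25, 95% interval 0.30 to 1.30, adjusted p = 0.0062). The call was lost with DESeq2 (adjusted p = 0.0596), with thinned libraries (0.115), without shControl replicate 1 (0.101) and without shYEATS2 replicate 2 (0.0663), at log2 fold changes of 0.82, 0.98, 0.59 and 0.65. The ratio of *CDYL* to *CDYL2* counts, 26.4 and 21.0 in shControl and 21.7 and 16.3 in shYEATS2, overlapped.

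Among the YEATS readers, no change was called. *MLLT1* (ENSG00000130382, chr19:6210381-6279975, minus strand, 12 exons) encodes ENL, a subunit of the super elongation complex, and had 136 and 128 CPM in shControl and 148 and 134 CPM in shYEATS2. The groups overlapped, and the log2 fold change was 0.10 (SE 0.06, 95% interval −0.03 to 0.23, adjusted p = 0.198). The call depends on the setting: with library totals alone it was 0.23 (adjusted p = 0.0033) and without shYEATS2 replicate 2 it was 0.16 (adjusted p = 0.0107), both past the threshold. *MLLT3* (ENSG00000171843, chr9:20341669-20622499, minus strand, 11 exons) encodes AF9, the paralog of ENL, and had 9.04 and 9.34 CPM against 8.21 and 7.55 CPM. Its groups did not overlap, with both shYEATS2 libraries lower, but the log2 fold change of −0.21 (SE 0.13, 95% interval −0.47 to 0.06, adjusted p = 0.206) did not pass the test.

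The counts of *MLLT1* per count of *MLLT3* were 15.0 and 13.7 in shControl and 18.0 and 17.8 in shYEATS2, a shift of 0.32 on the log2 scale, also chosen after the values were seen. *YEATS4* (ENSG00000127337, chr12:69359710-69390870, plus strand, 7 exons) encodes GAS41, shared by the SRCAP and TIP60 complexes that deposit H2A.Z and acetylate histones. It stood at 21.1 and 21.9 CPM in shControl and at 21.2 and 21.9 CPM in shYEATS2, and the groups overlapped. The log2 fold change was 0.00 within rounding (SE 0.09, adjusted p = 0.9999), with a 95% interval from −0.19 to 0.19 that bounds any change at this depth. Its log2 fold change lay near the middle of all genes tested, of which 50.8% had one as low or lower, and its sign turned with the setting.

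*DPF2* (ENSG00000133884, chr11:65333843-65354262, plus strand, 11 exons), a BAF chromatin-remodelling subunit that binds acylated H3 through its double PHD finger, had 30.5 and 34.5 CPM in shControl and 34.0 and 33.6 CPM in shYEATS2. Both shYEATS2 values fell between the shControl values. The log2 fold change was 0.06 (SE 0.08, 95% interval −0.11 to 0.23, adjusted p = 0.584). Of its exon length, 13.5% is shared with a long non-coding RNA on the opposite strand that has no entry in the counts used here.

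By separation of the libraries alone, 5 of the 10 genes had both shYEATS2 libraries below both shControl libraries (*GCDH*, *ACADS*, *ECHS1*, *HADH* and *MLLT3*), where 36.3% of all genes tested did, and 2 had both above (*CDYL* and *CDYL2*), where 35.3% did. The 4 mitochondrial enzymes were among the former, but *GCDH* was not called and its sign changed with library totals alone. *MLLT1*, *YEATS4* and *DPF2* overlapped.

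Levels of different genes were compared per kilobase of the MANE Select transcript. In shControl the order was *ECHS1* (69.0 CPM per kb), *HADH* (32.8), *MLLT1* (29.1), *YEATS4* (14.7), *CDYL* (11.9), *GCDH* (8.78), *DPF2* (8.75), *ACADS* (3.17), *MLLT3* (1.37) and *CDYL2* (0.212). *GCDH* and *DPF2* overlapped between libraries there, and no other neighbours did. In shYEATS2 *MLLT1* (31.1 CPM per kb) stood above *HADH* (19.6), and *CDYL* (17.0) above *YEATS4* (14.7), while *DPF2* (9.10) stood above *GCDH* (8.22), and no neighbours in the order overlapped. *ECHS1* was the highest and *CDYL2* the lowest in all 4 libraries. *GCDH* ran at 8.54 to 9.03 CPM per kb in shControl, so it was well below *ECHS1* on this scale in every library. The place of *HADH* depends on the length used, since its annotated exons together span 12881 bases against 1803 in the MANE transcript, and over the longer span its rank was 5 in shControl and 7 in shYEATS2. The order of *GCDH* and *DPF2* in shYEATS2 depends on it too. Over all annotated exons *GCDH* (3.81 CPM per kb) stood above *DPF2* (3.69).

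The genes around crotonyl-CoA and its readers were counted from lists, each set beside the 23.6% lower and 22.6% higher among all genes tested. Of the 14 genes of lysine breakdown upstream of GCDH and its flavoprotein electron acceptors, 5 were lower and 4 higher, with a median log2 fold change of −0.01. The 3 named by the rule were all higher: *SUGCT*, which returns glutarate to glutaryl-CoA, went from 15.8 ± 0.0282 to 24.3 ± 0.860 CPM (log2 fold change 0.61, SE 0.10, adjusted p = 2.7e-07). *DHTKD1*, of the 2-oxoadipate dehydrogenase that forms glutaryl-CoA, went from 23.1 ± 1.52 to 31.7 ± 0.206 CPM (0.46, SE 0.09, adjusted p = 1.2e-05). *AASS*, which opens the saccharopine route of lysine breakdown, went from 12.2 ± 0.493 to 15.6 ± 0.418 CPM (0.35, SE 0.11, adjusted p = 0.0065). The 5 lower genes, named after their values were seen, were *AADAT* (log2 fold change −1.01), which makes 2-oxoadipate, *DLD* (−0.22), and the electron acceptors *ETFA* (−0.27), *ETFB* (−0.23) and *ETFDH* (−0.26). The genes that lead lysine carbon into glutaryl-CoA thus moved in both directions, and *GCDH* itself was not called. *PIPOX*, the remaining gene called higher, had 2 to 9 counts in a library.

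Of 25 genes of acyl-CoA oxidation and short-chain acyl-CoA use, 7 were lower and 3 higher, with a median of −0.05. *ACSS2*, which makes acetyl-CoA and can make crotonyl-CoA from the free acids, went from 31.5 ± 0.720 to 21.5 ± 0.668 CPM (log2 fold change −0.55, SE 0.09, adjusted p = 6.1e-07). The peroxisomal thiolase *ACAA1* went from 31.1 ± 2.36 to 22.1 ± 1.19 CPM (−0.48, SE 0.09, adjusted p = 1.0e-05). *HSD17B10*, a mitochondrial dehydrogenase of short-chain 3-hydroxyacyl-CoA, went from 87.7 ± 1.77 to 65.0 ± 3.60 CPM (−0.43, SE 0.07, adjusted p = 3.5e-07). The 3 higher genes, named after their values were seen, were *ACADL* (log2 fold change 0.74, at 2.78 CPM in shControl), *ECI2* (0.23) and *HADHA* (0.15).

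Among 5 histone crotonyltransferases 1 was lower and 1 higher. *KAT2A* (GCN5) went from 30.9 ± 0.340 to 20.7 ± 1.29 CPM (log2 fold change −0.57, SE 0.09, adjusted p = 3.4e-07). *EP300* (p300) went from 78.4 ± 1.54 to 88.7 ± 4.07 CPM (0.18, SE 0.07, adjusted p = 0.0192). This call depends on the setting. Among the settings on all 4 libraries, the count of crotonyltransferases called higher was 0 with DESeq2 and without the filter on low counts. It was also 0 with thinned libraries and at an adjusted p under 0.01. The call on *EP300* also depended on which library was left out. With library totals alone the count of crotonyltransferases called higher was 2. Among 7 decrotonylases 2 were lower and 1 higher. *HDAC3* went from 67.5 ± 0.566 to 49.6 ± 5.02 CPM (−0.43, SE 0.07, adjusted p = 1.3e-06) and *HDAC1* from 119 ± 0.680 to 97.8 ± 1.09 CPM (−0.29, SE 0.06, adjusted p = 1.5e-04). *HDAC2*, the close paralog of *HDAC1*, went the other way, from 98.7 ± 0.504 to 119 ± 0.181 CPM (0.27, SE 0.06, adjusted p = 3.9e-04). These calls on the decrotonylases were the same in number in all 14 alternatives.

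Of 10 other acyl-lysine readers, 1 was lower (*YEATS2*) and 3 were higher, *BRD2* (log2 fold change 0.23, SE 0.06, adjusted p = 0.0011) and *BRD3* (0.29, SE 0.08, adjusted p = 0.0020) among them, with none higher without shControl replicate 1. The partners of ENL and AF9 in the super elongation and DOT1L complexes had 13 of 14 genes tested (*ELL3* was not), with 0 lower, also at an unadjusted p under 0.05 and with DESeq2 and limma-voom, and 5 higher, with a median of 0.09. *EAF1*, a partner of the ELL elongation factors, went from 27.2 ± 0.477 to 43.8 ± 3.39 CPM (0.67, SE 0.08, adjusted p = 2.0e-10), while *MLLT10* (AF10, 0.30) and *CCNT1* (cyclin T1, 0.24) rose less. Without shControl replicate 1, 1 of these genes was called higher. So these partners included risers while *MLLT1* and *MLLT3* themselves were not called.

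The 20 other genes of SRCAP and TIP60, the complexes of GAS41, had 5 lower and 5 higher, with *DMAP1* (log2 fold change −0.61, SE 0.09, adjusted p = 4.7e-08) and *MORF4L2* (−0.47, SE 0.06, adjusted p = 1.7e-10) lower and *EPC1* (0.34, SE 0.09, adjusted p = 0.0016) higher. Without shControl replicate 2, 1 was called higher. The 21 other genes of BAF and related complexes, which include the *DPF2* paralogs *DPF1* and *DPF3*, had 4 lower and 3 higher. *BCL7C* was at −0.32 and *BCL7B* and *ACTL6A* at 0.29 and 0.28. With thinned libraries the counts were 1 lower and 3 higher. The 9 co-repressor partners of CDYL had 2 lower, *EZH2* (−0.27, SE 0.08, adjusted p = 0.0021) and *HDAC1*, and 2 higher, with *HDAC2* the largest rise. *EZH2*, the H3K27 methyltransferase whose mark CDYL binds, went from 52.9 ± 3.08 to 43.7 ± 0.116 CPM while *CDYL* rose. The medians of the lists lay between −0.11 and 0.09, beside −0.01 for all genes tested.

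**Figure D4:**
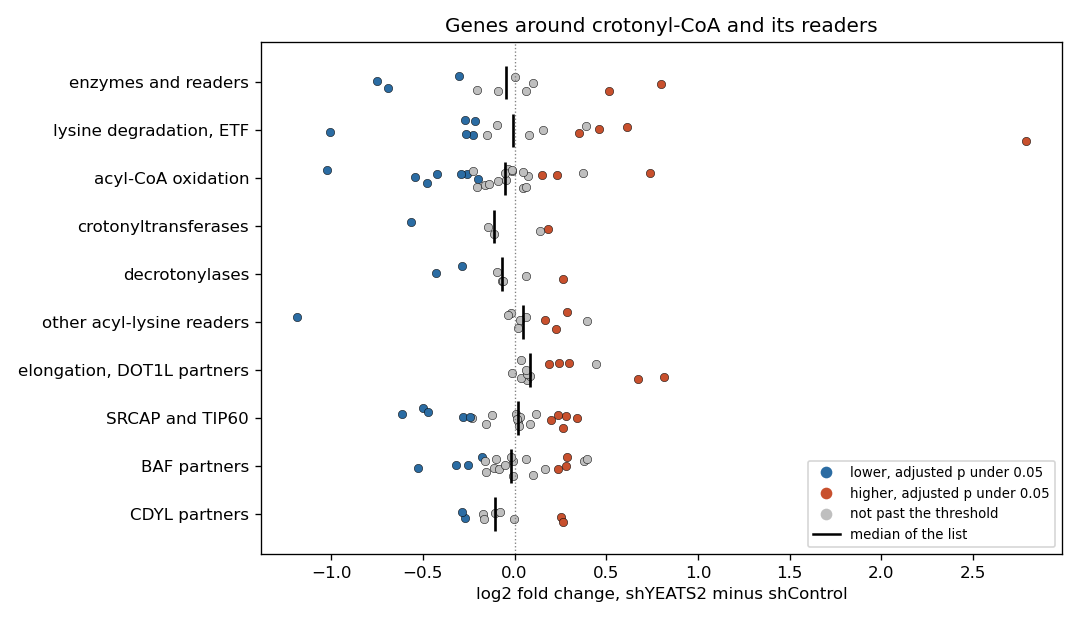
Log2 fold change (shYEATS2 minus shControl) of each tested gene in the 10 enzymes and readers and in 9 lists of related genes, blue for lower and red for higher at an adjusted p under 0.05, with a bar at each list's median. The medians lie between −0.11 and 0.09, and genes of either direction occur in every list but the partners of elongation and DOT1L, where 0 were lower.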

How the data were processed

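RNA was extracted with TRIzol and made into stranded mRNA libraries, sequenced as paired 150 bp reads. Per the submitters' processing notes, reads were checked with FastQC, aligned to GRCh38 with STAR and counted with HTSeq, and the authors deposited raw read counts per gene, without normalization. The annotation release and strand setting are not given in the sources used here. Tallies of reads given to no gene (15.3 to 16.5% of all tallies, with 4.31 to 4.61% of all tallies ambiguous) were left out.

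Counts were filtered (filterByExpr), scaled (TMM) and tested with edgeR 4.0.16 (glmQLFit, robust; glmQLFTest) in R 4.3.3 on condition alone, with Benjamini-Hochberg adjustment and a threshold of 0.05. The SE is the log2 fold change over the square root of F. The fit was tested on simulated data. Replicates differed by more than counting noise (chi-square per degree of freedom 5.95 and 5.39 over genes with at least 50 counts). Intervals are 95%. DESeq2 1.42.0 and limma 3.58.1 (voom) were alternatives, with other scalings, filters and thinning, a block on replicate number, a threshold of 0.01, and each library left out.

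Related genes named are up to 3 per list, called, with the largest log2 fold change, a mean of at least 10 CPM and groups that do not overlap; exceptions are stated. The 10 genes and the lists were chosen with earlier results of these data known. Positions are from GENCODE release 44 (GRCh38), which held 60295 of the 60623 identifiers.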

Additional observations from a re-analysis of the deposited data

How the results depend on the processing

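*ECHS1*, *HADH*, *CDYL* and *MLLT3* kept their direction and their side of the threshold in all 14 alternatives, with log2 fold changes of −0.35 to −0.17, −0.81 to −0.61, 0.47 to 0.65 and −0.35 to −0.07. Of the 140 values of the 10 genes, 124 kept both, 5 fell short of the threshold, 2 passed it newly and 9 changed sign. The sign changes were in genes near 0: *YEATS4* was at 0.13 with library totals alone, 0.0063 with DESeq2's size factors, 0.012 with upper quartiles, 0.0073 with DESeq2, and −0.030 to 0.017 when a library was left out. *GCDH* was at 0.042 with library totals alone, and *DPF2* ranged from −0.032 to 0.14 when a library was left out, the lowest without shControl replicate 1. Library totals alone moved the median of all genes from −0.01 to 0.13, so *YEATS4* then sat at that median and *GCDH* below it.

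Of the 10 genes, 1 was called higher with DESeq2 and with thinned libraries, 2 or 3 with the other settings on all 4 libraries, and 1 to 2 when a library was left out, the lowest without shControl replicate 1. Without shYEATS2 replicate 2 the genes called higher were *CDYL* and *MLLT1*. Of all genes, 4019 were lower and 3857 higher; library totals alone gave 2567 and 5441, and thinned libraries 2344 and 2320, with fewer counts and 14411 genes tested. The *GCDH* to *ECHS1* difference, 0.21, was 0.26 when thinned and 0.18 to 0.24 when a library was left out. The causes of the other moves were not tested. For the lists, lower calls ranged over the alternatives from 1 to 5 (lysine breakdown), 4 to 8 (acyl-CoA oxidation), 1 to 2 (crotonyltransferases), 3 to 7 (SRCAP and TIP60), 1 to 6 (BAF) and 1 to 3 (CDYL partners), and higher calls from 2 to 5, 0 to 7, 0 to 2, 1 to 6, 1 to 5 and 1 to 2, with 0 to 3 for other readers and 1 to 10 for elongation and DOT1L partners.

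Same-numbered libraries showed no shared deviation in the counts (correlation of −0.02 across genes). This value cannot show whether they were prepared together. A replicate block left the same 3 of the 10 genes lower and the same 2 higher, with 4142 lower and 3870 higher over all genes and *YEATS4* at 0.0037.

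*CDYL2* (42 to 77 counts) and *ACADS* (40 to 252 counts) had the fewest counts. Thinned to the smallest total, neither passed the threshold, at log2 fold changes of 0.98 and −0.74, beside 0.80 and −0.69 at full depth. *CDYL2* also did not pass at full depth with DESeq2, without shControl replicate 1 and without shYEATS2 replicate 2. The cause was not tested.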
